A study of Mus musculus with 3 samples.

Results

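Caput-high beta-defensins are 10 genes of the mouse epididymis (Defb15, Defb18, Defb20, Defb25, Defb30, Defb41, Defb42, Defb45, Defb47 and Defb48), out of 40 genes in the matrix whose symbol starts with Defb and 24335 genes in all. They were chosen by name from measured values, as beta-defensins with more RNA in the caput than in the cauda, so the caput level set against the cauda level is a description of that choice and supports nothing here. The choice is not exhaustive: 7 of the other Defb genes also passed the size rule given below for caput over cauda. Cells came from untreated wild-type C57BL/6 mice, 56 days old, whose epididymis was divided into 3 regions: the caput, or head, which receives sperm from the testis, the corpus, or body, and the cauda, or tail, where sperm are stored. Each region gave 1 library, with the number of animals pooled not given in the sources used here.

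Beta-defensins are small secreted cationic peptides, and their mature part folds around cysteines joined by disulfide bonds. They are known as antimicrobial peptides of epithelia, and in the epididymis several of them coat sperm during maturation. Principal cells, the tall secretory cells that form most of the epididymal epithelium, are known to release different sets of secreted proteins in successive segments of the duct. Growth factors from the testis that reach the first segment with the luminal fluid are known to keep many genes of the caput switched on.

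The members are shown first by their coding sequence, in which each has a stretch that matches the cysteine pattern of beta-defensins, while the exact spacing of the cysteine codons and the levels differ. In the GENCODE M21 annotation each of the 10 has a coding core of 84 to 90 bases, from the first to the last cysteine codon of that pattern. The search asked for 6 cysteine codons at bounded spacings, so the 6 cysteine codons of each core and much of its length follow from the search. The ends of the mature peptide were not located. The 6 cores given here belong to genes on which the results on groups of cells and on co-expression turn. Capitals mark the cysteine codons, and each core is written 5′ to 3′.
Defb48: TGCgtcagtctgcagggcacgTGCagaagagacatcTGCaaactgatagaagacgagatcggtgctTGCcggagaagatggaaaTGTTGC
Defb25: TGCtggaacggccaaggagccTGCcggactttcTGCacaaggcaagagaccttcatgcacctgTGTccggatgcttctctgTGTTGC
Defb47: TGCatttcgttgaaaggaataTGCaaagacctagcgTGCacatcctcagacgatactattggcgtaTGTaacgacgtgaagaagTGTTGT
Defb30: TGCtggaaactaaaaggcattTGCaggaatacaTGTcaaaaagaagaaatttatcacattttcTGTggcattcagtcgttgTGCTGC
Defb15: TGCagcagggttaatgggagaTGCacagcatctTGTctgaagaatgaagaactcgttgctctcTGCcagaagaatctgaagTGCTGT
Defb42: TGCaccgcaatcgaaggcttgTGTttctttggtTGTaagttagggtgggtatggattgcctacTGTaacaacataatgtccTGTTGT

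Between the 10 cores, base identity over 45 pairs had a median of 50.5% and ran from 43.3% to 62.2%. The highest identity was that of Defb30 and Defb45, which lie on different chromosomes. Codons for the basic residues lysine and arginine numbered from 1 in Defb42 to 7 in Defb41 and Defb48. With 1 coding transcript taken for each member, no stretch of 50 bases was found on the same strand of another gene's transcripts. On the opposite strand, 110 such stretches of Defb15 were found in Gm36879, an antisense gene that is not in the matrix, and none of the other 9 members had any.

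Per the GRCm38 positions of GENCODE M21, the members lie in 4 places: Defb18 and Defb41 on chromosome 1, Defb20, Defb45 and Defb25 on chromosome 2, Defb15 on chromosome 8, and Defb48, Defb47, Defb30 and Defb42 on chromosome 14. Each has 2 exons except Defb30 and Defb42, which have 3. The models of Defb30 (chr14:63034087-63049960, minus strand) and Defb42 (chr14:63046991-63058149, plus strand) overlap, but no base is an exon of both. Strand use in the counting was not given in the sources used here, so reads of Defb15 and its antisense gene, and reads from introns in the stretch that Defb30 and Defb42 share, cannot be told apart.

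RefSeq promoters (GRCm38.p6) matched 8 of the 10 members, all except Defb18 and Defb25. The 250 bases before the RefSeq start are given for 5 genes, and for Defb30 and Defb45 that start lies inside the longer GENCODE model: 1 for each group of caput cells described below, and Defb42, whose level was nearly even across them. Letters were searched on both strands, and capitals mark TATAAA (the TATA box) and AGAACA (a short element that steroid hormone receptors bind) or their reverse complements.
Defb48 (chr14:62984511-62984760, minus strand): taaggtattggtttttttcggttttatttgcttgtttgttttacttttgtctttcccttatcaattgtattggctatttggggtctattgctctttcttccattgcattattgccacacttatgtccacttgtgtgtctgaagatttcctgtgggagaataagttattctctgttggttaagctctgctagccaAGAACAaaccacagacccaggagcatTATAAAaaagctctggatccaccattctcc
Defb47 (chr14:62997827-62998076, plus strand): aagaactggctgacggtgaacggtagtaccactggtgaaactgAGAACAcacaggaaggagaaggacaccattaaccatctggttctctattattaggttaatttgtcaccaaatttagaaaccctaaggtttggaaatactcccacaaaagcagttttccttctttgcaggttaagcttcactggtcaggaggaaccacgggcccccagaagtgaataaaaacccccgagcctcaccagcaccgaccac
Defb45 (chr2:152596486-152596735, minus strand): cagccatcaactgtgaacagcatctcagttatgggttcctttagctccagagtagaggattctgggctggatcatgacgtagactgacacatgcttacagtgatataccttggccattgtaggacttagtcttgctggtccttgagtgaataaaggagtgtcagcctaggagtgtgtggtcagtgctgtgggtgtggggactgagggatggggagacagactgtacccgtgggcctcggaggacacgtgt
Defb30 (chr14:63037847-63038096, minus strand): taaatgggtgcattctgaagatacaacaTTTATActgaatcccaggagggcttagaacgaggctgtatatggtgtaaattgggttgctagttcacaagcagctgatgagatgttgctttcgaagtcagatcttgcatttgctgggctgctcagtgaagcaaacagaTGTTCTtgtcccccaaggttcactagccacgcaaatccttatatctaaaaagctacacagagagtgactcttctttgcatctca
Defb42 (chr14:63046741-63046990, plus strand): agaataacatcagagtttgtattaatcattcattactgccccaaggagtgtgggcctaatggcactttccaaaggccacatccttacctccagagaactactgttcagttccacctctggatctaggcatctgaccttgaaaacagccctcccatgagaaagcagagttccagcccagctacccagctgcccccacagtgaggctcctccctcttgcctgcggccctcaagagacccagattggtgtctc

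AGAACA was found in 5 of the 8 promoters (Defb15, Defb30, Defb41, Defb47 and Defb48) and in 16.1% of 32851 mouse promoters of the same length. TATAAA was found in 3 of 8 (Defb15, Defb30 and Defb48) and in 12.4% of all promoters. GGAAGT (an ETS site), TGACTCA (an AP-1 site) and AACAATGG (a SOX site) were in none of the 8, and in 19.7%, 4.46% and 0.901% of all promoters. A match describes letters in this window and nothing more.

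In all, 41500792 unique molecular identifiers (UMIs, each counting 1 captured RNA molecule) came from 4961 cells of the caput, 21495211 from 4959 of the corpus and 18341476 from 4925 of the cauda. Of the cells kept (at least 200 detected genes), 2110 caput, 1837 corpus and 755 cauda cells passed a gate for principal cells, which asked for at least 2.5% of UMIs from 28 principal cell markers, none of them a Defb gene, and no other class. Principal markers had a median share of 12.3%, 5.51% and 3.99% of UMIs in these cells, and their median depth was 7524, 2674 and 1954 UMIs. Summed markers of the other classes had medians of at most 0.122% in caput principal cells, while in cauda principal cells fibroblast markers had a median of 0.555% and in corpus erythroid markers 0.588%. When all cells were clustered, 136 of the 755 cauda principal cells fell in a cluster named fibroblast by its markers, and these had a median of 980 UMIs. Cells with over 20% mitochondrial UMIs were 3.38% in the caput, 28.5% in the corpus and 25.9% in the cauda, and 23 cell barcodes occurred in more than 1 library. The part of these differences in the results below was not tested.

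The first comparison asks where along the duct the 10 genes were present in principal cells. Together they held 5.99% of all UMIs of caput principal cells, 0.317% in the corpus and 0.0424% in the cauda. Of the UMIs of all Defb genes they held 94.0%, 8.91% and 1.36%. The choice of the genes sets much of these shares, and nothing is read from them.

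Levels are CPM, in which a gene's summed UMIs are scaled to the sum over all genes in the same cells, and each gene is compared across regions rather than with other genes. Defb20 had 18298 CPM in caput, 126 in corpus and 22.5 in cauda. Defb48 had 9204, 30.9 and 49.3 CPM in the same order, and Defb25 had 9112, 5.51 and 6.60. For these genes the caput stood far above both other regions, and Defb48 and Defb25 were no lower in cauda than in corpus.

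Defb47 had 6223 CPM in caput, 7.08 in corpus and 3.66 in cauda. Defb41 had 4210, 6.24 and 1.47 CPM, and Defb18 had 3133, 1.77 and 5.62. Defb45 had 896 CPM in caput, and in the principal cells of the other regions it was counted only 1 time (corpus) and 2 times (cauda). These 4 genes were thus at trace level once past the caput.

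Defb15 had 745 CPM in caput, 32.9 in corpus and 0.977 in cauda. Defb30 had 1795, 1252 and 5.62 CPM, so its corpus level was close to that of the caput and the drop lay between corpus and cauda. Defb42 had 6277, 1711 and 328 CPM, the only member above 100 CPM in all 3 regions.

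**Figure D1:**
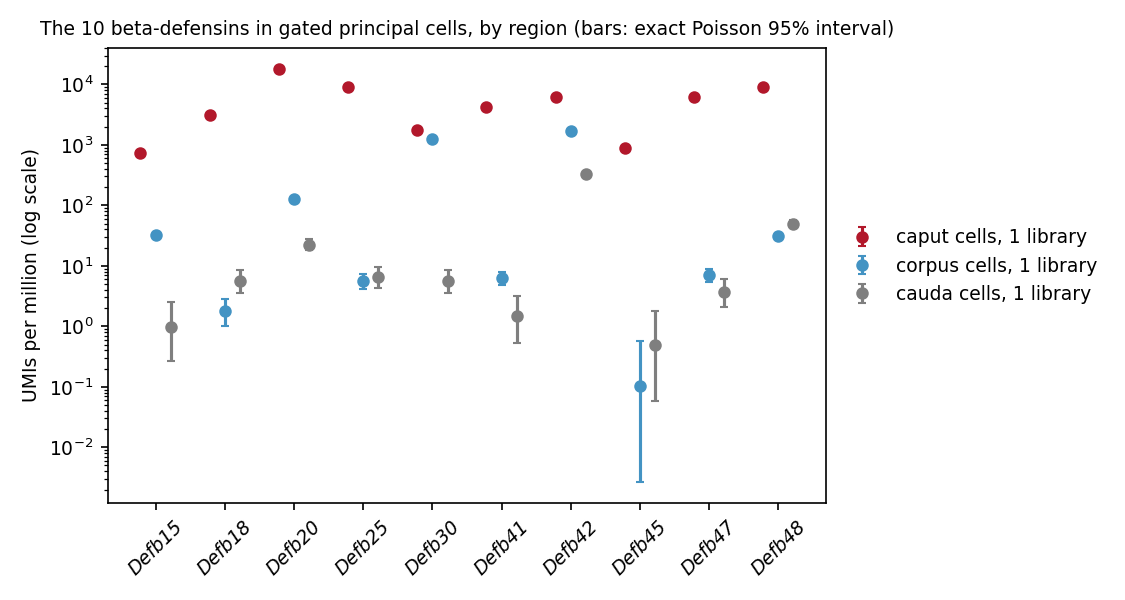
Level of each of the 10 genes in gated principal cells of caput (red), corpus (blue) and cauda (grey), in CPM on a log axis, with 1 library per region and exact Poisson 95% intervals as bars. Defb30 and Defb42 have corpus levels of 1252 and 1711, while the other 8 genes lie at 126 or below in corpus.

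By the size rule, a gene was called higher in a region where the CPM ratio reached 4, the exact 95% interval of that ratio lay above 2, and 100 or more UMIs had been counted in that region. For caput over corpus, the contrast that the choice of genes did not use, 8 of the 10 passed, while 7.57% of 9728 genes tested did, and none was called higher in corpus (4.32% of all genes). The caput library is shared with the contrast used for the choice, so the calls are not independent of it. The median log2 ratio of the 10 was 8.81, beside 0.12 over all genes tested. Among 24 other Defb genes tested, 4 were called higher in caput and 14 higher in corpus, with a median log2 ratio of -2.45.

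The ratio of caput to corpus was 22.7 for Defb15 (95% interval 20.3 to 25.4), 146 for Defb20 (138 to 154), 298 for Defb48 and 674 for Defb41. It was 880 for Defb47, 1652 for Defb25 and 1771 for Defb18 (1106 to 3040). For Defb45 the ratio of 8614 rested on 1 corpus UMI and its interval ran from 1546 to 340247. Defb30 (1.43, interval 1.41 to 1.46) and Defb42 (3.67, 3.61 to 3.73) did not pass. Each region is 1 library, so these ratios have no replicate check, no test was made, and the intervals cover counting error only.

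For caput over cauda, which the choice used, all 10 passed, beside 8.59% of 9609 genes tested (3.89% in the other direction), and nothing is read from this. The ratio ran from 19.1 for Defb42, the member closest to the boundary of the choice, to 2872 for Defb41. With principal cells taken from named clusters, all 10 still passed, with a median log2 ratio of 7.08 in place of 9.62 and a log2 ratio of 8.77 in place of 11.49 for Defb41 and 5.17 in place of 10.84 for Defb45. That setting held 45 cauda cells, and a count of 0 is set to 3 in these ratios. Over all 4785 kept cauda cells Defb45 had 6 UMIs, so its smaller ratio is not read as a changed level. Among Defb genes not chosen, Defb21 had 609 CPM in caput, 243 in corpus and 0.489 in cauda, and Defb23 had 251, 2302 and 0.244. Defb12, also not chosen, had 659 CPM in caput, 13.9 in corpus and no UMI in cauda. It was called higher in caput than in both other regions, with a caput over corpus ratio of 47.3, so that pattern is not particular to the members.

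For corpus over cauda, 4 of the 10 passed, beside 3.53% of 6682 genes tested (2.17% in the other direction, with none of the 10), and 5 of the 10 had enough UMIs to be tested. The ratio was 223 for Defb30 (148 to 352), 33.7 for Defb15 (13.0 to 124), 5.59 for Defb20 and 5.22 for Defb42. Defb48 had a ratio of 0.626 (0.522 to 0.753), and Defb18, with 17 corpus and 23 cauda UMIs, one of 0.315. The calls of Defb15 and Defb20 were lost when principal cells were taken from named clusters, which left 2 calls. Those clusters hold 45 cauda cells and leave out an unnamed cluster with 599 of the 755 gated cauda principal cells.

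Within the corpus, Defb30 was uneven. All cells were also clustered together, and clusters are called here by number and leading genes. Corpus principal cells of cluster 1, led by Ntsr2, Rnase13 and Lcn5 and made mostly of caput cells, had 11574 CPM of Defb30 over 27 cells. In cluster 15, with Spint4 and Spint5 among its leading genes, the level was 5476 over 256 cells. In cluster 30, led by haemoglobin genes followed by Spint4 and Spint5, it was 871 over 338 cells, and in cluster 3, with Car4, Bsph2 and Cyp17a1 among its leading genes, it was 270 over 1035 cells. Cluster 2, led by genes of dividing cells (88 cells), had 414 CPM and cluster 24 (30 cells) had 54.8. Defb15 had 601, 113, 8.89 and 5.01 CPM in clusters 1, 15, 30 and 3. Defb42 had 4296, 2941, 1412 and 1523 CPM, a narrower range. No Defb gene was used to make these clusters, and the values are a description of cells from 1 library.

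The share of cells with at least 1 UMI was compared after each cell was thinned to 1000 UMIs, since depth differed. In caput principal cells Defb42 was seen in 99.1% of cells, Defb20 in 98.9%, Defb41 in 88.6%, Defb25 in 86.9%, Defb48 in 79.2%, Defb47 in 66.8% and Defb18 in 54.6%. Defb45 (41.8%), Defb30 (36.7%) and Defb15 (24.7%) were seen in a minority. Without thinning, the shares ran from 50.6% for Defb15 to 100% for Defb20.

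In corpus principal cells thinned in the same way, Defb42 was seen in 68.9%, Defb30 in 31.1% and Defb20 in 11.3% of cells. Defb45 was seen in 0 of 1822 corpus cells, with an exact upper limit of 0.202%. In the cauda, Defb42 was seen in 23.0% of 583 cells and Defb48 in 3.26%, with 172 cells too shallow to thin. Defb15 and Defb45 were seen in none of them, with an upper limit of 0.631%.

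Endothelial cells, which are not known to make these peptides, were taken for comparison. How UMIs of the members came to be counted in them was not tested. In 142 caput endothelial cells (median 5164 UMIs before thinning, against 7524 in principal cells), Defb20 was seen in 80.3% of thinned cells and 99.3% of unthinned ones. Defb48 was seen in 58.5% of thinned endothelial cells, Defb42 in 46.5%, Defb41 in 21.8% and Defb15 in 8.45%. Thinned basal, clear, fibroblast and macrophage cells of the caput had other shares. Those of Defb20 ran from 81.5% (basal) to 91.1% (macrophage), and those of Defb15 from 0.885% (fibroblast) to 8.93% (macrophage). For each of the 10 genes the share in caput principal cells was higher than in endothelial cells. Of the other classes thinned in this way (basal, clear, fibroblast and macrophage), the one exception was Defb47, seen in 73.2% of 56 caput macrophages (95% interval 59.7% to 84.2%) and in 66.8% of principal cells. In the corpus Defb42 was seen in 8 of 57 endothelial cells and Defb20 in 2 of 57. A UMI of these genes in a single caput cell is therefore common in cells of another type.

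The next question is how the members stood in cell types other than principal cells, beside the principal cell markers. Cells were gated as another class where at least 3 of its markers were seen, its markers' share of UMIs was at least 5 times the library's median and at least 0.1%, and principal markers made up less than 2.5%. Over 1043 such caput cells the 10 genes stood at 7.53% to 12.8% of their level in principal cells, with a median of 8.96%. The 25 principal cell markers with enough UMIs stood at a median of 8.51% (5.70% to 56.8%).

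By class, the members' median was 10.4% in clear cells (the acidifying cells of the duct), beside 9.69% for the principal markers. It was 7.46% in basal cells beside 7.24%, and 6.89% in ciliated cells beside 6.64%. The values were 11.5% beside 11.8% in fibroblasts, 8.68% beside 7.74% in endothelial cells, 12.2% beside 12.5% in macrophages and 13.9% beside 12.5% in erythroid cells. In each of the 7 caput classes with enough cells the members' median lay near that of the principal markers, and none of these held a member at over 19.6% of its principal cell level. In the corpus 5 members had enough UMIs, and their median over 1566 cells of other classes was 16.5%, beside 12.8% for 18 principal markers. Single values in the corpus went higher on few UMIs: Defb15 in clear cells was at 45.8% (20 UMIs, interval 27.6% to 72.0%) and Defb48 in macrophages at 41.8% (10 UMIs, 19.9% to 78.0%). A count of 0 was set to 3 in these ratios, which gave values up to 67.5% in corpus T or NK (natural killer) cells and 191% in corpus germ cells (25 cells). In the cauda, where 2 members could be compared (Defb42 and Defb48), the members' median was 10.6% beside 7.29% for 15 markers, and in clear cells 21.8% beside 11.9%. In each class compared in the corpus and the cauda the members' median lay above that of the markers, and the reason was not tested. Defb15, which is nearly absent from cauda principal cells (4 UMIs, 0.977 CPM), had 13 UMIs in 108 cauda clear cells (16.6 CPM, 8.82 to 28.3). Unthinned, it was seen in 10.2% of them against 0.530% of principal cells, but their median depth was 5744.5 against 1954 UMIs. Thinned to 1000 UMIs, it was seen in 2 of 104 clear cells (1.92%, 0.234% to 6.77%) and 0 of 583 principal cells (upper limit 0.631%), and these intervals overlap. The exact intervals of the CPM levels do not overlap, but the count is small, and the gene was singled out after its values were seen.

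**Figure D2:**
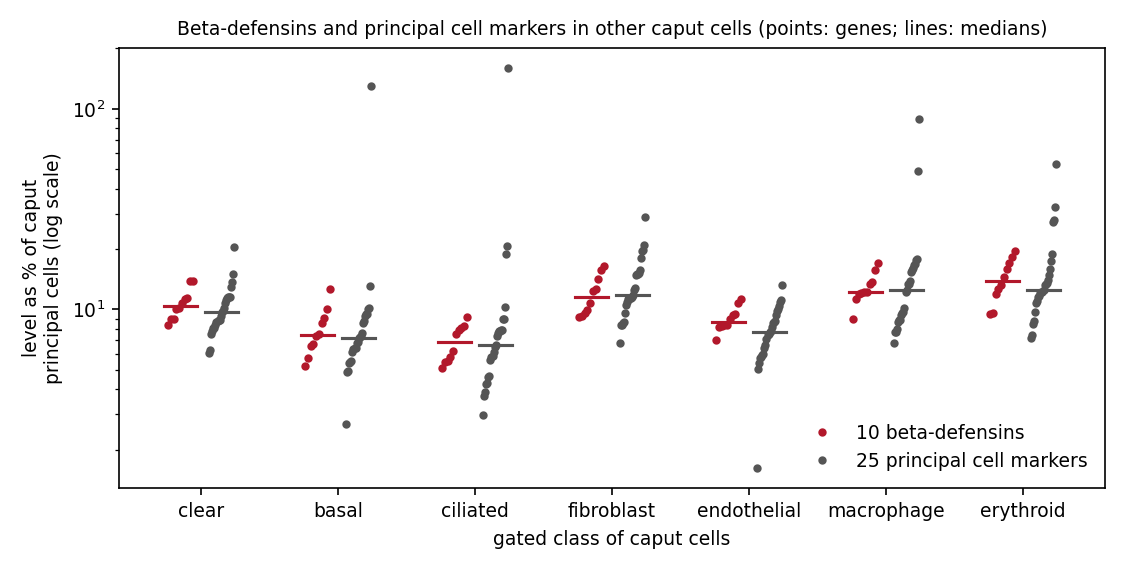
Level of each of the 10 genes (red points) and of 25 principal cell markers (grey points) in 7 other classes of caput cells, as a percentage of the level in caput principal cells on a log axis, with lines at the medians. The red and grey medians lie close together in each class, from 6.89% beside 6.64% in ciliated cells to 13.9% beside 12.5% in erythroid cells.

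The ceiling of 2.5% on principal markers, which also set aside 1034 caput cells that held both kinds of markers, limits how high these values can go. Without that ceiling the summed members stood at 44.5% of their principal cell level and the summed principal markers at 44.4%. With the ceiling these sums stood at 10.6% and 9.69%. Cells let in without the ceiling are richer in principal markers by definition, so nothing is read from the joint rise. In clusters named by their markers, which have no such ceiling, the members stood at 58.2% and the principal markers at 47.0%. A cluster named clear (144 caput cells, median 11153 UMIs) had Tecta among its leading genes. In a cluster named erythroid (532 caput cells), Teddm1b followed the haemoglobin genes. Both genes also led groups of caput principal cells described below, so nothing is read from these 2 percentages.

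The third question is how the 10 genes were distributed among caput principal cells. Each cell was thinned to 2000 UMIs, which left 2072 cells. The median cell had a UMI of 8 of the 10 genes, 94 cells had all 10, and no cell had fewer than 3. In 142 caput endothelial cells at the same depth the median was 5, a value to read beside these counts. Defb42 was the most even, with a median of 12 UMIs per cell, a 5th percentile of 5 and a 95th percentile of 21. The richest 10% of the cells held 17.5% of its UMIs.

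At the other end, the richest 10% of cells held 74.5% of Defb30's UMIs, 67.8% of Defb15's and 62.9% of Defb47's. Defb47 had a median of 2 UMIs and a maximum of 160 in 1 thinned cell. Defb20, with a median of 35 and a maximum of 184, had 24.8% of its UMIs in the richest 10% of cells, close to Defb25 (23.1%), Defb41 (23.5%) and Defb48 (25.9%). Defb18 (46.2%) and Defb45 (45.5%) lay between.

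Caput principal cells were then clustered without any Defb gene, which gave 11 groups. The description rests on 4 groups of over 200 cells whose leading genes were not those of another cell type. These 4 were picked after the groups had been seen. Among the leading genes were Teddm2 and Tecta in group 1 (485 cells), Spink13 and Teddm1b in group 5 (227 cells), Lypd8 and Ppy in group 2 (394 cells), and Wfdc13 and Rnase9 in group 4 (247 cells). Their median depths were 10189, 7350, 7363 and 9687 UMIs. Of the rest, group 3 (388 cells, median 3593 UMIs) was led by collagen and haemoglobin genes, groups 7 and 9 by genes of dividing cells, and groups 6, 8, 10 and 11 held 151, 47, 28 and 20 cells.

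Group 1 was the highest of these 4 in Defb48 and Defb25. Defb48 had 18606 CPM in group 1, 2886 in group 5, 860 in group 2 and 816 in group 4. Defb25 had 15647, 10449, 2127 and 941 CPM in the same order. Both genes were lowest in group 4, and in group 5 Defb25 was nearer to its group 1 level than Defb48 was.

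Group 5 was the highest in Defb47, Defb20, Defb18 and Defb41. In groups 1, 5, 2 and 4, Defb47 had 1602, 33621, 5834 and 853 CPM. Defb20 had 19722, 39673, 17235 and 3750, and Defb41 had 5166, 7385, 3675 and 976. Defb18 had 524, 10101, 7656 and 367, so it was high in groups 5 and 2 and low in groups 1 and 4.

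Group 2 was the highest of the 4 in Defb45, with 413, 1347, 2226 and 408 CPM in groups 1, 5, 2 and 4. Group 4 was the highest of the 4 in Defb30 and Defb15. Defb30 had 368, 398, 308 and 10149 CPM, and was concentrated in 1 group. Defb15 had 34.7, 57.5, 1815 and 2172 CPM, and was shared by groups 2 and 4. In group 9, outside these 4, Defb15 had 2431 CPM and Defb45 had 2271 over 33 cells.

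Defb42 had 6198, 8360, 6721 and 6055 CPM in groups 1, 5, 2 and 4. Over the groups of at least 50 cells its highest and lowest level differed by 1.62-fold, against 5.69-fold for Defb45, 7.57-fold for Defb41, 10.6-fold for Defb20 and 62.7-fold for Defb15. So 9 of the 10 genes differed by more than 4-fold between groups, and Defb42 was the exception. The same count was not made over all genes, so it is not read as a trait of the members.

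**Figure D3:**
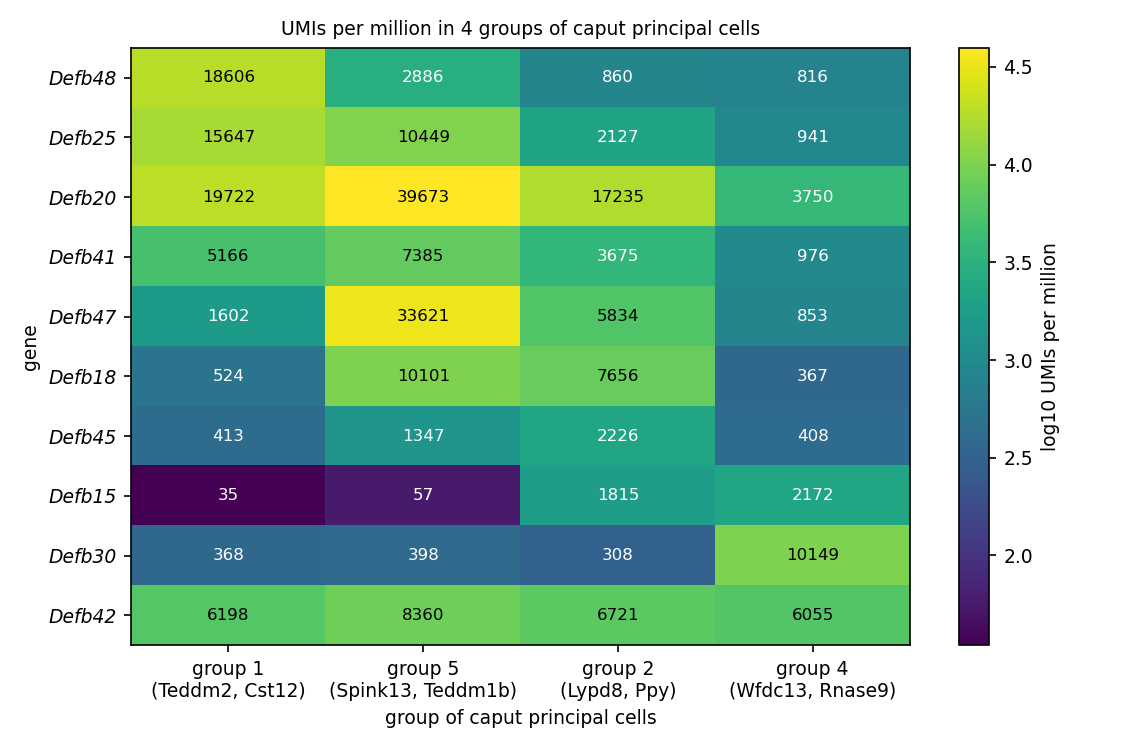
Level of each of the 10 genes in 4 groups of caput principal cells that were clustered without any Defb gene, in CPM, printed in each box and coloured on a log10 scale. Defb48 and Defb25 are highest in group 1, Defb47 reaches 33621 in group 5, Defb30 reaches 10149 in group 4, and Defb42 stays between 6055 and 8360.

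The sum of the 10 genes made up 6.83% of UMIs in group 1, 11.4% in group 5, 4.85% in group 2 and 2.65% in group 4. The gene with the most UMIs among them was Defb20 in groups 1, 5 and 2 and Defb30 in group 4, where Defb30 held 38.3% of the members' UMIs. Different members thus had their highest level in different groups.

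Other genes differed between the same groups. Dusp6, a phosphatase induced by the growth factor pathway of the ERK kinases, had 260 CPM in group 1, 91.0 in group 5, 28.8 in group 2 and 18.9 in group 4. Etv5, an ETS transcription factor of the same pathway, had 146, 95.1, 14.7 and 6.49 CPM. Spag11b, a sperm-binding protein related to defensins, had 17636, 34751, 35233 and 3954 CPM. Lcn5, a lipocalin that binds retinoids, had 281, 596, 2436 and 16116 CPM, highest in group 4 as Defb30 was. These genes were used in the clustering, so their values describe the groups.

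Pearson's r of log-transformed UMIs was taken for the 45 pairs of members over the 2072 thinned cells of the 1 caput library. The cells share that library, so r is a description and has no p. The median was 0.16, 13 pairs had r of at least 0.3, and 19 pairs were below 0. These counts were not made over pairs of other genes, so they are not read as a trait of the members. The highest was Defb25 with Defb48 (0.79), and the lowest was Defb15 with Defb25 (-0.64).

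The pairs fell along the same lines as the groups. Defb20 went with Defb41 (0.67), Defb25 (0.61) and Defb47 (0.52), and Defb25 went with Defb41 (0.56). Defb18 went with Defb47 (0.62) and Defb45 (0.50). Defb30 was opposed to Defb20 (-0.59) and Defb41 (-0.50), and Defb48 was opposed to Defb15 (-0.51) and Defb18 (-0.49). Defb42 had its highest value with Defb41 (0.32).

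**Figure D4:**
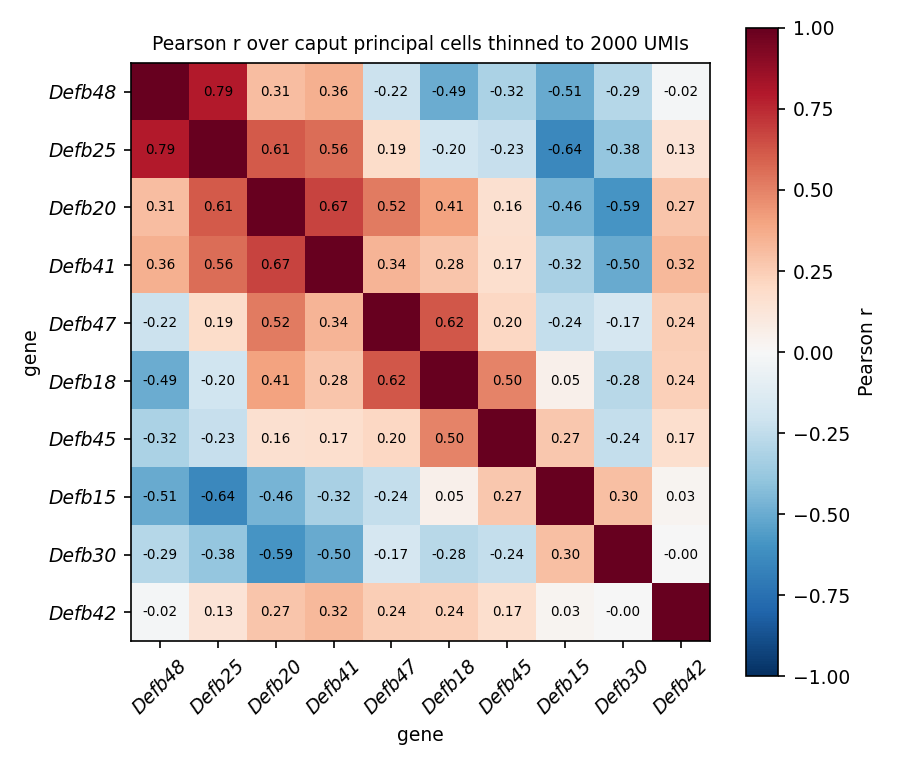
Pearson's r for each pair of the 10 genes over 2072 caput principal cells thinned to 2000 UMIs, with red for positive and blue for negative values. Defb48 and Defb25 (0.79) and Defb18 and Defb47 (0.62) are strongly positive, Defb15 and Defb30 are negative with Defb20, Defb25, Defb41 and Defb48, and Defb42 is weakly related to all.

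Genes most like each member were taken from 3958 genes over the same cells. Defb25 was most like a gene named by a genomic clone (0.90) and Lcn9 (0.89) and Lcn8 (0.87), lipocalins that carry small hydrophobic molecules. Defb48 was most like Adam28, a membrane metalloproteinase (0.89), Lcn8 (0.87) and Teddm2 (0.87). Defb20 was most like Cst11, a cystatin that inhibits proteases (0.79), Spag11b (0.72) and Lcn2, the antibacterial lipocalin that binds siderophores (0.68).

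Defb41 was most like Defb20 (0.67), Cst11 (0.66) and Ly6g5c (0.59). Defb18 was most like Defb47 (0.62), Spink10 (0.58) and Spag11b (0.56). Defb47 in turn was most like Defb18 (0.62), Defb20 (0.52) and Gm17416 (0.49), and Defb45 was most like Lypd8 (0.54), Defb18 (0.50) and a clone-named gene (0.49). Another member was thus among the 2 nearest genes of 4 members, a count that was not made for other genes and from which nothing is read.

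Defb30 was most like Rnase9, a secreted protein of the ribonuclease A family (0.81), a clone-named gene (0.76) and Defb39 (0.75). Defb15 was most like a clone-named gene (0.80), Spink11, a protease inhibitor of the Kazal type (0.70), and Clu, the secreted chaperone clusterin (0.68). Defb42 had no close match: its highest values were with Gm17416 (0.40), Crip1 (0.37) and Defb41 (0.32).

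Position on the chromosome was set beside these values. The 10 pairs on the same chromosome had a median r of -0.01 (-0.29 to 0.61), and the 35 pairs on different chromosomes had one of 0.17 (-0.64 to 0.79). The closest neighbours that do not overlap were Defb18 and Defb41 (13.5 kb apart, r = 0.28) and Defb47 and Defb48 (13.6 kb apart, r = -0.22). The overlapping pair, Defb30 and Defb42, had r near 0. Defb25 and Defb48, with the highest r, lie on different chromosomes and had a core identity of 50.5%, the median of all pairs.

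Along the duct, several neighbours of the members had other patterns and some had the same direction. Defb22, known for coating sperm, lies 5.73 kb from Defb20 and had 0.301 CPM in caput, 2457 in corpus and 2.20 in cauda principal cells. Defb23, on the other side of Defb20, had 251, 2302 and 0.244 CPM, and Defb28, 38.3 kb away, had 275, 9797 and 7247. On chromosome 14, Defb43 lies among the 4 members and had 13.1, 2287 and 3253 CPM, the reverse of its neighbours Defb47 (10.6 kb away) and Defb48. Next to Defb15, Defb11 had 44.2, 2587 and 5088 CPM and Defb9 had 7.04, 413 and 1622. Near Defb45, Defb36 (15.1, 3.12 and 0.244 CPM) and Defb19 (11.6, 2.39 and 1.22) were called higher in caput than in both other regions, at low levels, and Defb21, given above, was also highest in caput. Defb13, near Defb15, had 14.1, 10.4 and 2.93 CPM. Of the Defb genes that were not chosen and had the most UMIs, Defb2 had 321, 2236 and 8103 CPM and Defb37 had 324, 3900 and 874.

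**Figure D5:**
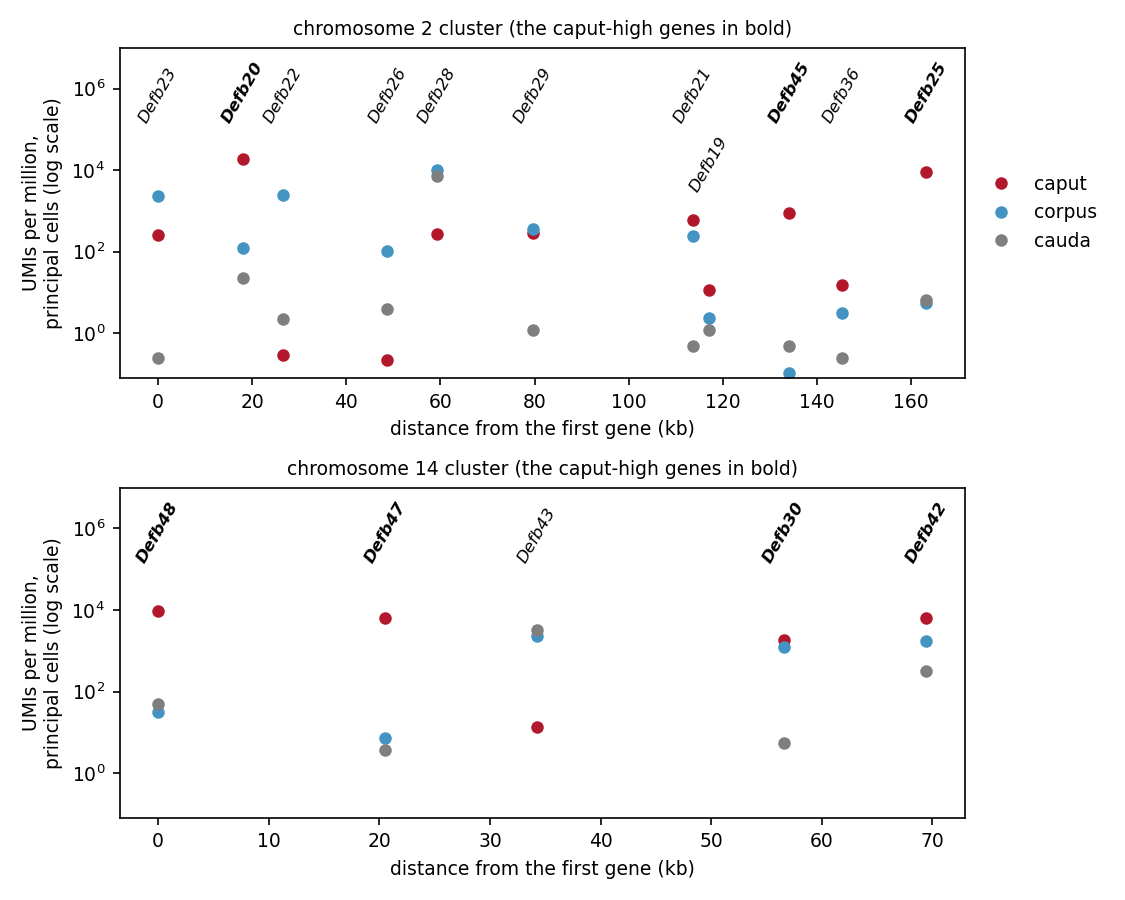
Level of the Defb genes of the chromosome 2 and chromosome 14 clusters in principal cells of caput (red), corpus (blue) and cauda (grey), in CPM on a log axis, against distance from the first gene in kb. Bold names mark the caput-high genes: on chromosome 2, Defb20 at 18298 in caput stands beside Defb22 at 2457 in corpus, and on chromosome 14, Defb43 is high in corpus and cauda between genes that are high in caput.

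Other genes were taken from lists, which were chosen with earlier results of these data known, so the counts below describe that choice. Of genes known for the initial segment, the first part of the caput, 8 of 9 tested were called higher in caput than corpus, among them Cst11 (8145 CPM in caput and 1.46 in corpus) and Adam28 (4062 and 1.14). Of genes known for the later caput, 6 of 8 were, among them Gpx5, a secreted glutathione peroxidase (41425 and 17.2). Of regulators of caput transcription, 8 of 18 were, with Etv5 at 83.7 and 0.936 CPM and Sox9 at 169 and 14.8. Of other antimicrobial genes, 4 of 8 were and 1 was lower, with Spag11b at 20743 and 3.85 CPM and Bpi, which binds bacterial endotoxin, at 138 and 0.312. Of receptors and enzymes that act on defensins, 1 of 3 was: Mmp7, which cleaves prodefensins in the intestine, had 57.7 and 11.8 CPM, and 78.4 in cauda. Over all genes tested the share was the 7.57% given above, and nothing is read from the difference.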

How the data were processed

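Single cells of each region were captured with the Singleron GEXSCOPE kit, per the labels' protocols. Reads were aligned with STAR 2.7.3a and counted with UMI-tools on GRCm38.p6, per the submitters' processing notes, and the deposited values are UMI counts per gene and cell (whole numbers, largest 3993). The rule for calling cells was not given in the sources used here. Both members and lists were chosen with earlier results of these data known, and the gate's thresholds were set after the marker distributions were seen. Cells with under 200 genes were left out (22, 128 and 140), and 12 classes were gated with 129 listed markers (123 in the matrix). Cells with markers of more than 1 class were set aside, which also removed mixed doublets, and no doublet caller was run. The numbers of cells near the gate, with 2% to 3% principal markers, were 49, 197 and 251. Genes named beside the members followed a rule: the 5 other Defb genes with the most UMIs (Defb28, Defb2, Defb37, Defb11 and Defb39), Defb neighbours within 50 kb, the 3 most like genes (in at least 5% of cells), and up to 4 of each list. Genes of the cell groups, and Defb12, were named after their values were seen. Groups used 2000 variable genes, 30 components, 15 neighbours and Leiden resolution 0.5. Intervals are exact (Poisson, conditional binomial or Clopper-Pearson, 95%). The size rule was run on simulated Poisson counts, which hold no variation between libraries. That run cannot show how the rule fares with 1 library per region. Python 3.11.15, scanpy 1.11.5, scipy 1.17.1 and R 4.3.3 with edgeR 4.0.16 (TMM factors only) were used. The values of 1 listed gene and the sequence of 1 coding core are not reported here.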

Additional observations from a re-analysis of the deposited data

How the results depend on the processing

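No paired analysis was possible because each region had 1 library and the replicate numbers were given in accession order. Caput over corpus gave 8 or 9 calls of 10, and caput over cauda 10, under every gate, scaling and size rule tried. With principal cells from named clusters the median log2 ratio of caput over cauda went from 9.62 to 7.08. Corpus over cauda gave 4 calls, and 2 with principal cells taken from named clusters, where the median log2 ratio turned from 1.52 to -0.32. Those clusters held 45 cauda cells and left out the unnamed cluster with most of the gated cauda principal cells, and the cause was not tested. Defb42 passed caput over corpus without a gate (log2 ratio 2.06) and under a 2-fold size rule. Between 12 and 17 pairs had r of at least 0.3, a count not made for pairs of other genes. Under every clustering tried, 9 of the 10 genes differed by more than 4-fold between groups, a count not made for other genes. In cells of other classes the summed members stood at 10.6% of principal cells, 10.5% with at least 500 genes per cell, 58.2% in named clusters (principal markers 47.0%), and 44.5% without the ceiling, an alternative chosen after seeing the data. The named clusters had no ceiling either, and some had leading genes of principal cell groups, so nothing is read from their value. Depth limits the corpus and cauda levels of Defb18, Defb25, Defb41, Defb45 and Defb47, which rest on at most 68 UMIs each.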
